A study of Drosophila melanogaster with 24 samples.

Results

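The genes of the Ran cycle and of the main nuclear transport receptors were examined for occupancy by Stwl (Stonewall), labelled as a transcription factor, and BEAF in Drosophila melanogaster ovaries. The 9 genes were taken by name from a list: Ran, RanGAP, Rcc1 and Ntf-2 of the Ran cycle, the protein transport receptors Cse1, emb, Fs(2)Ket and Tnpo, and the mRNA export receptor sbr. All 9 were matched by symbol among 13922 protein-coding genes on the X, chromosome 4 and the large autosomal arms. An interval was assigned to a gene when it overlapped the gene or the 500 bp beyond either of its annotated ends. The study used CUT&RUN, in which an antibody directs a nuclease to the DNA its target occupies and the released DNA is sequenced, and 3 of its 24 samples are used here. The first is Stwl in bam GKD ovaries, labelled as undifferentiated stages, in which bam, the gene whose product starts germline differentiation, was knocked down (other samples of the series carry the label BamRNAi). The second is Stwl in WT ovaries, labelled as differentiated stages, profiled with the same antibody. The third is BEAF, a boundary element protein, in WT ovaries. The labels do not state the driver of the knockdown, the strain or age of the flies, or the number of animals. The samples are ovary tissue, which holds germline and somatic cells, so fewer occupied cells and weaker occupancy per cell cannot be told apart.

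Ran is a small GTPase whose nucleotide state gives transport through the nuclear pore its direction. Rcc1, bound to chromatin, loads Ran with GTP inside the nucleus, RanGAP makes Ran hydrolyse GTP in the cytoplasm, and Ntf-2 carries Ran-GDP back through the pore. Import receptors let go of cargo on meeting Ran-GTP, whereas export receptors hold cargo together with it, and bulk mRNA leaves through sbr without using the Ran gradient. The series is titled around the formation of nuclear pores in oogenesis, and these genes supply the transport that the pores serve.

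There were 12857 Stwl intervals in bam GKD, 8576 Stwl intervals in WT and 5083 BEAF intervals on these arms, with median widths of 807 bp, 721.5 bp and 236 bp. Neighbouring intervals lay at least 1001 bp apart in both Stwl lists and at least 76 bp apart in the BEAF list, so 1 Stwl interval can stand for several nearby sites. No interval had the same start and end in both Stwl lists. The widest interval of each list lay over the chorion genes on 3L, which are amplified in follicle cells of late egg chambers. It measured 81541 bp in bam GKD, 72696 bp in WT and 6463 bp for BEAF, and Cp15, Cp16 and Cp19 lay wholly inside the interval in each list. The bam GKD ovaries are labelled as undifferentiated stages, and the part of this signal in the results on bam GKD was not tested. Each group had 1 list with no score, read count or replicate, so the read depth is unknown, no value has an error, and no test was run. The tissue and the knockdown could not be checked against markers, since the lists hold no expression.

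All 9 genes had Stwl in bam GKD and all 9 had Stwl in WT, so none was occupied in bam GKD only or in WT only, against 11.9% and 5.89% of all protein-coding genes. Over all protein-coding genes 64.0% had Stwl in bam GKD and 58.0% in WT, and 52.1% had it in both. The 9 genes, at 2512 to 16333 bp, had a median length of 5359 bp against 2163 bp over all protein-coding genes, and longer genes meet an interval more often. Among protein-coding genes in that same range of lengths, 74.9% had Stwl in bam GKD, 71.5% in WT and 65.0% in both. BEAF was present at 6 of the 9 (Ran, Ntf-2, Cse1, emb, Fs(2)Ket and sbr) and absent from RanGAP, Rcc1 and Tnpo, against 31.3% of all protein-coding genes and 41.1% of those in the same range of lengths. The same 6 genes were in all 3 lists, against 27.1% and 36.8%. With 5083 of the widest intervals taken from each list, 5 of the 9 kept Stwl in bam GKD and 7 kept it in WT, against 35.3% and 43.8% of all protein-coding genes under that setting.

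**Figure D1:**
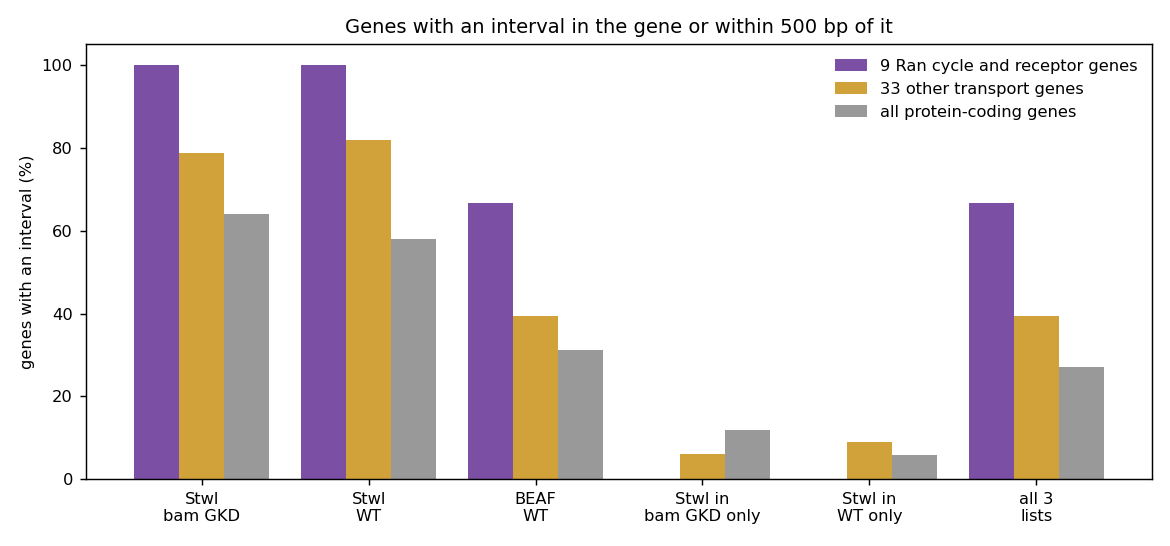
Percentage of genes (y axis) with an interval in the gene or within 500 bp of it, for each list and combination of lists (x axis), in the 9 Ran cycle and receptor genes, 33 other transport genes and all protein-coding genes. The 9 genes stand at 100% in both Stwl lists and at 0% for Stwl in 1 genotype only, and the shares over all protein-coding genes are 64.0% in bam GKD and 58.0% in WT.

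Within the Ran cycle, the gene of the GTPase itself was occupied at 1 end. Ran (X, 11144852 to 11148716 on dm6) had a Stwl interval of 2045 bp in bam GKD (11147990 to 11150034) and of 2717 bp in WT (11147129 to 11149845). Both covered its higher-coordinate end and ran on into Lint-1, a gene 606 bp away, so the occupancy may belong to either gene. The WT interval had 1588 bp inside Ran and the bam GKD interval 727 bp, and the bam GKD bases of the searched span all lay within those of WT. BEAF covered the same end with 380 bp, and a second BEAF interval of 147 bp lay inside Ran, within the WT Stwl interval and outside the bam GKD one. At the other end, 42 bp from CG15201, the nearest Stwl interval was 905 bp away in bam GKD and 1040 bp away in WT.

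RanGAP (2L, 19441959 to 19447317), which encodes the activator of GTP hydrolysis by Ran and is known for the truncated copy behind the Segregation Distorter system of male flies, had Stwl without BEAF. At its lower end the interval measured 2038 bp in bam GKD, with 1108 bp inside RanGAP, and 1870 bp in WT, with 232 bp inside it. The intervals shared 57.0% of the bam GKD bases, and the bam GKD one lay further into the gene. This end lies inside CG10237, so the genes cannot be separated there. A second site lay in the middle of RanGAP, with 202 bp in bam GKD wholly within 538 bp in WT. It began 65 bp beyond Hs2st, a gene lying within RanGAP, in bam GKD and 16 bp beyond Hs2st in WT. The nearest BEAF interval was 5641 bp from the gene.

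Rcc1 (3L, 5930262 to 5932773), whose product loads Ran with GTP, had the narrowest Stwl intervals of the 9 genes. They covered its higher end with 181 bp in bam GKD (5932650 to 5932830) and 197 bp in WT (5932627 to 5932823), and 96.1% of the bam GKD bases lay in the WT interval. Only 4.43% of the bam GKD list and 9.56% of the WT list were narrower, and the nearest BEAF interval lay 58708 bp from the gene. Rcc1 was lost from both Stwl lists when the wider 50% of each list was used.

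Ntf-2 (X, 21035469 to 21041467), the import carrier of Ran, was occupied at both ends. At the lower end Stwl covered 3066 bp in bam GKD and 2515 bp in WT, the WT interval lying wholly within the bam GKD one, and a BEAF interval of 1683 bp covered the same end. At the higher end the intervals were the widest seen at any of the 9 genes, 5434 bp in bam GKD and 5297 bp in WT. Of those, 274 bp and 341 bp lay inside Ntf-2, and the rest ran across Mgstl into Cbs. Each of these intervals shared 315 bp with BEAF, outside the searched span. A further interval of 491 bp lay inside the gene in bam GKD, reaching into CG15449. It was the single Stwl interval at the 9 genes without an overlapping partner in the other genotype, the nearest WT interval being 1451 bp away.

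**Figure D2:**
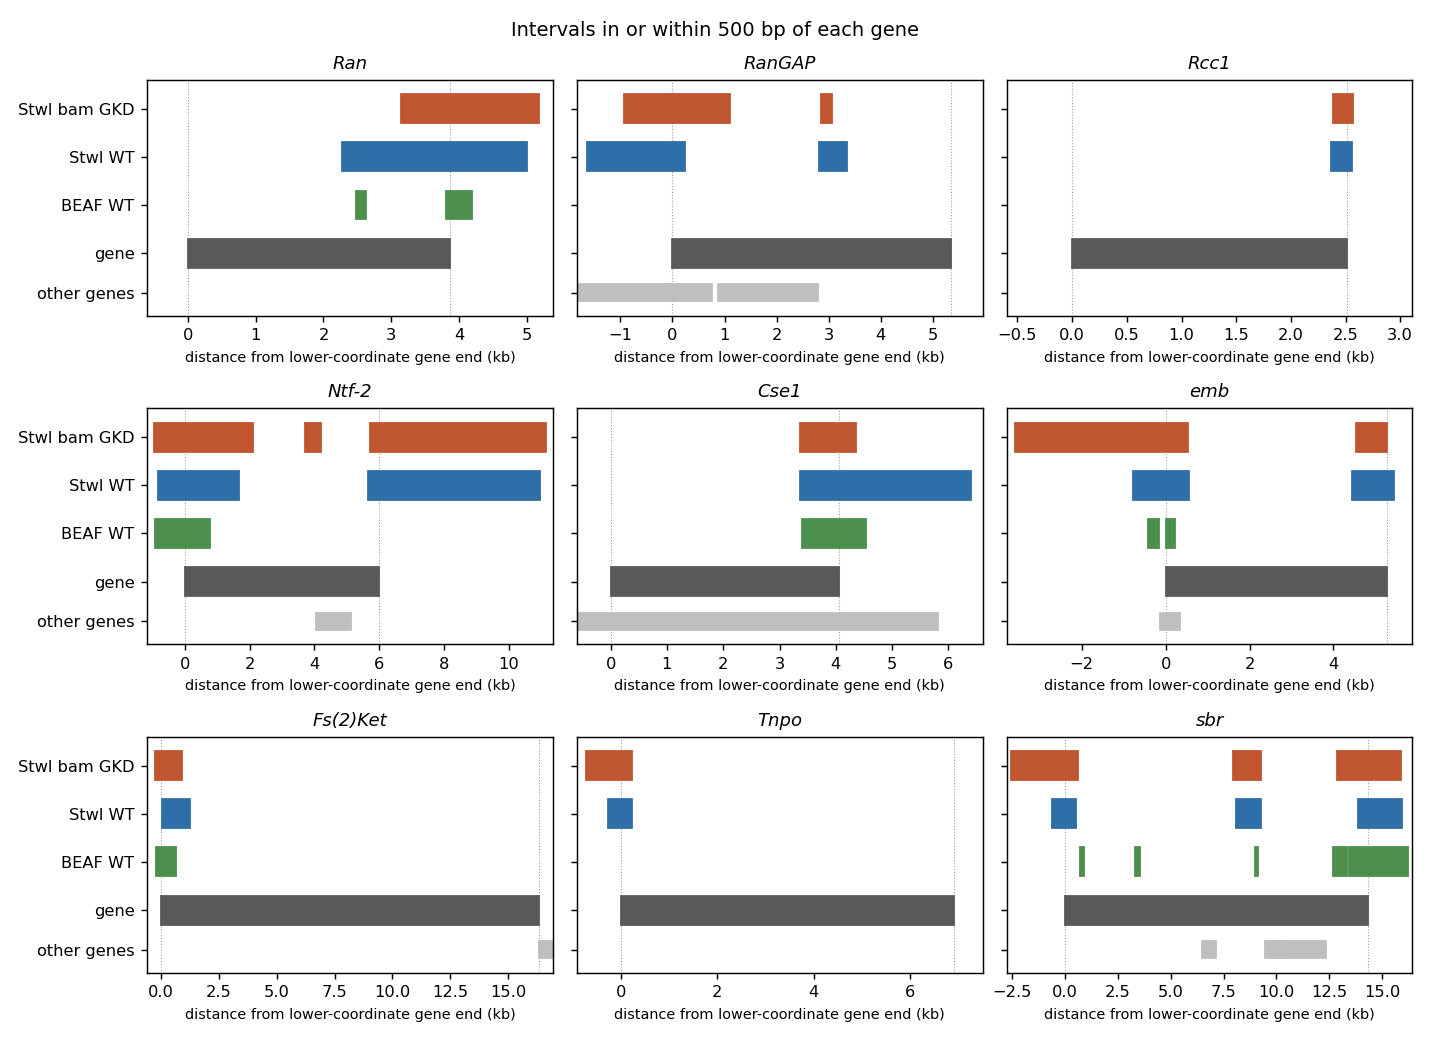
Maps of the 9 genes, with distance from the lower-coordinate gene end in kb on the x axis and, from top to bottom, the intervals of Stwl bam GKD, Stwl WT and BEAF WT, the gene, and other annotated genes that overlap it. Intervals that miss the gene and the 500 bp beyond its ends are not drawn, and dotted lines mark the gene ends. Stwl intervals of the 2 genotypes sit at the same ends of every gene, and the 491 bp interval inside Ntf-2 is drawn in bam GKD only.

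Among the protein transport receptors, Cse1 (2L, 16821156 to 16825207), which returns importin alpha to the cytoplasm, had all 3 profiles at its higher end. Stwl covered that end with 981 bp in bam GKD and 3049 bp in WT, and BEAF with 1131 bp. The bam GKD and BEAF intervals lay wholly within the WT one, which ran 2356 bp beyond Cse1, into AspRS-m, a mitochondrial aspartyl-tRNA synthetase gene. In bam GKD a separate interval of 959 bp lay 1439 bp beyond the gene, outside the searched span. Cse1 itself lies wholly inside the gene mdy, so its intervals are also intervals of mdy. When the centre of an interval had to fall in the searched span, the WT call at Cse1 was lost.

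The export receptor gene emb (2L, 8403573 to 8408853), the fly CRM1, was occupied at both ends by Stwl and at the lower end by BEAF. At the lower end Stwl measured 4128 bp in bam GKD and 1320 bp in WT. The bam GKD interval ran 3588 bp beyond emb, across fy and CG31898 into CG13386, and the WT interval 769 bp beyond it, into fy, while their reach into emb was 540 bp and 551 bp. BEAF intervals of 261 bp and 201 bp lay on either side of this end and inside both Stwl intervals. At the higher end Stwl measured 723 bp in bam GKD, wholly within 1014 bp in WT. The WT interval crossed the gene end into Naglu, 34 bp away, and the bam GKD interval stopped 16 bp short of it.

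Fs(2)Ket (2L, 20734609 to 20750941), the importin beta gene named for dominant female-sterile alleles, is the longest of the 9 and was occupied at its lower end alone. Stwl measured 1167 bp in bam GKD (20734368 to 20735534) and 1204 bp in WT (20734652 to 20735855), and BEAF 856 bp (20734384 to 20735239). The BEAF interval lay wholly within the bam GKD interval and shared 68.7% of its bases with the WT one, which began 42 bp inside the gene. The other end lies inside Amacr, and the nearest Stwl intervals were 6968 bp away in bam GKD and 1140 bp away in WT.

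Tnpo (3L, 6193480 to 6200385), the transportin gene, whose product imports RNA-binding proteins among others, had Stwl at its lower end and no BEAF. The intervals measured 944 bp in bam GKD and 494 bp in WT. They reached 233 bp and 238 bp into Tnpo and differed mainly outside it, where the bam GKD interval ran 711 bp towards and into Sf3b6, a splicing factor gene, and the WT interval 256 bp. The nearest BEAF interval lay 137763 bp away. Among the wider 50% of each list Tnpo kept Stwl in bam GKD and lost it in WT.

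The mRNA export receptor gene sbr (X, 10832752 to 10847092), the fly NXF1, had the most intervals, 3 of Stwl in bam GKD, 3 of Stwl in WT and 5 of BEAF. At its lower end Stwl measured 3196 bp in bam GKD and 1108 bp in WT, reaching 2578 bp and 609 bp beyond the gene. No BEAF lay within 500 bp of that end, but the bam GKD interval shared 309 bp with BEAF outside the searched span. A site in the middle of sbr measured 1318 bp in bam GKD and 1185 bp in WT, and held a BEAF interval of 157 bp. Over the higher end, 345 bp from Pgls, lay 3056 bp in bam GKD, 2054 bp in WT and 2803 bp of BEAF, and the WT Stwl interval was wholly covered by BEAF. BEAF intervals of 210 bp, 215 bp and 640 bp inside sbr did not overlap Stwl in WT. In bam GKD the 640 bp interval shared 470 bp with Stwl, and the 210 bp and 215 bp intervals did not overlap it.

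End by end, Stwl lay within 500 bp of 12 of the 18 gene ends in bam GKD and of 12 in WT, and the ends were the same in both genotypes. Ntf-2, emb and sbr had Stwl at both ends, and the other 6 genes at 1 end. Both ends held it at 46.3% of the end-occupied protein-coding genes in bam GKD and at 40.6% in WT. Over all protein-coding genes Stwl lay at 44.9% of ends in bam GKD and 39.2% in WT. Of all genes with Stwl at an end in both genotypes, 76.2% had it at the same end or ends, so 9 of 9 here is read against that share. BEAF lay at 6 of the 12 ends with Stwl in WT and at 0 of the 6 ends without, against 38.3% and 3.18% over all ends. Both counts are small and near those shares. Just outside the limit of 500 bp were a BEAF interval 589 bp beyond Ran and one 685 bp inside the lower end of sbr. Just inside it, the farthest from an end were the WT interval at Fs(2)Ket, 42 bp away, and a BEAF interval at emb, 150 bp away.

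**Figure D3:**
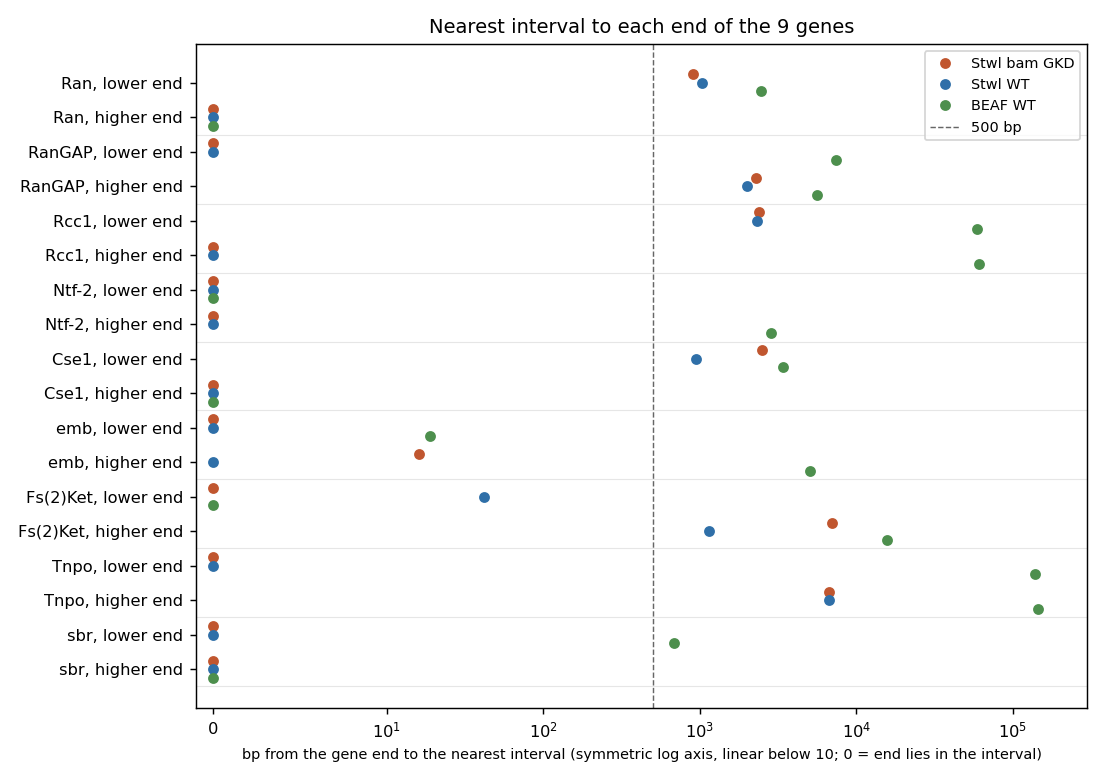
Distance in bp from each of the 18 ends of the 9 genes (rows) to the nearest interval of each list, on a symmetric log axis where 0 means that the end lies in an interval. At 12 ends both Stwl lists lie left of the dashed line at 500 bp, the farthest of them 42 bp away, and at the other 6 ends both lie right of it, the nearest 905 bp away.

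The intervals of the 2 genotypes also overlapped closely. All 14 Stwl intervals of WT at the 9 genes overlapped one of bam GKD, against 85.1% of WT intervals at all protein-coding genes. In bam GKD 14 of 15 intervals overlapped a WT interval, and 58.5% did so at all protein-coding genes. The intervals at the 9 genes were wider than their lists, with medians of 1318 bp against 807 bp in bam GKD and 1262 bp against 721.5 bp in WT. A wider interval can meet another list more easily, and these shares were not matched for width. The shares over all genes also include intervals at genes with Stwl in bam GKD only or in WT only. All 9 genes here had Stwl in both genotypes, which by itself raises their overlap. The overlap as a share of all bases covered in either genotype ranged from 43.5% at RanGAP to 85.4% at emb, with a median of 70.4% over the 9 genes and 55.8% over all genes with Stwl in both genotypes.

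The number of bases covered by Stwl within the searched span differed between genotypes in both directions. It was larger in bam GKD at 4 genes. sbr had 4417 bp in bam GKD and 3148 bp in WT, Ntf-2 3866 bp and 3017 bp, RanGAP 1810 bp and 1270 bp, and Tnpo 733 bp and 494 bp. It was larger in WT at 5 genes. Ran had 1227 bp in bam GKD and 2088 bp in WT, emb 1763 bp and 2065 bp, Cse1 981 bp and 1193 bp, Fs(2)Ket 1167 bp and 1204 bp, and Rcc1 181 bp and 197 bp. The ratio of bam GKD to WT ran from 0.588 at Ran to 1.48 at Tnpo, with a median of 0.969, against a median of 1.00 over all genes with Stwl in both genotypes, of which 48.7% had more bases in bam GKD and 47.8% more in WT. Interval width depends on depth and on the joining of intervals, and with 1 list per genotype it has no error.

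**Figure D4:**
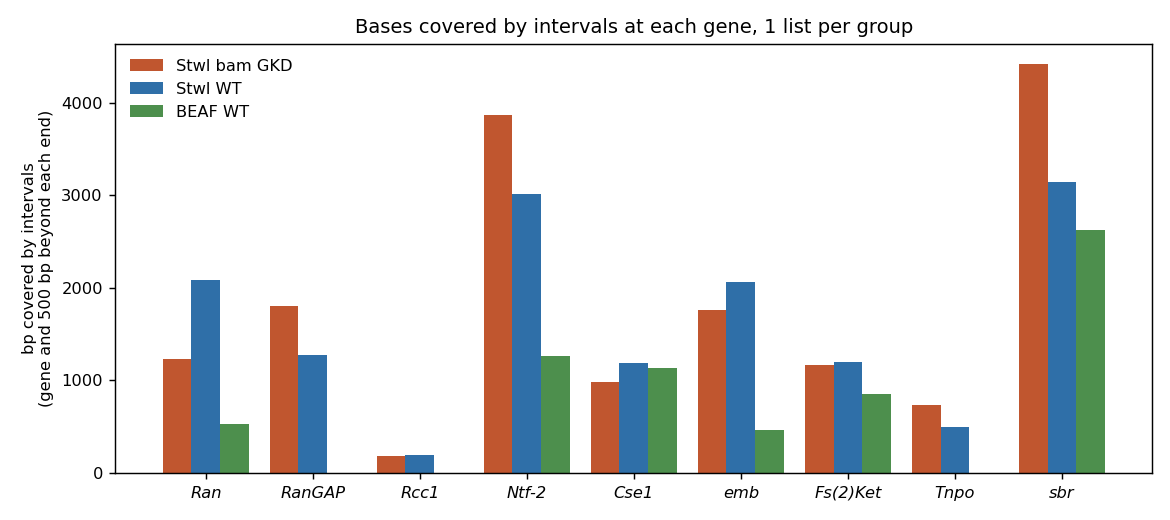
Bases covered by intervals (y axis, bp, within the gene and 500 bp beyond each end) at each of the 9 genes (x axis) for Stwl bam GKD, Stwl WT and BEAF WT, 1 list each. Bars are highest at sbr and Ntf-2 and lowest at Rcc1, the bam GKD bar is above the WT bar at 4 genes, and BEAF has no bar at RanGAP, Rcc1 and Tnpo.

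Of the 12 BEAF intervals at the 9 genes, 9 overlapped Stwl in WT (75.0%), against 73.1% at all protein-coding genes, which is near the background. Of the Stwl intervals of WT, 8 of 14 overlapped BEAF (57.1%), against 28.8%, a share not matched for the greater width of the intervals at the 9 genes. The 8 include the interval at the higher end of Ntf-2, which shared 315 bp with BEAF outside the searched span. The BEAF bases at Ran, Ntf-2, Cse1 and emb within the searched span lay wholly inside Stwl WT intervals, with 527 bp, 1268 bp, 1131 bp and 462 bp. At Fs(2)Ket 588 of 856 bp did so, and at sbr 1121 of 2622 bp. The 6 genes with BEAF had 1193 to 3148 bp of Stwl in WT, and the 3 without had 197 to 1270 bp, so the groups overlapped through RanGAP. By arm, BEAF lay at all 3 genes on X, where 48.9% of protein-coding genes had it, at 3 of 4 on 2L (27.4%) and at 0 of 2 on 3L (27.6%).

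Of 33 other nuclear transport genes, 26 had Stwl in bam GKD and 27 in WT (78.8% and 81.8%), and 13 had BEAF (39.4%). Over all protein-coding genes these shares were 64.0%, 58.0% and 31.3%, so the BEAF share was near the background. The 33 genes had a median length of 3250 bp against 2163 bp over all protein-coding genes, and these shares were not matched for length. Of the importin alpha adaptor genes, Kap-alpha1, Pen and Kap-alpha3 were in all 3 lists and alphaKap4 in none, its nearest Stwl interval being 7204 bp away in bam GKD and 44158 bp away in WT. Of 8 further import receptor genes, 5 had Stwl in bam GKD, 6 in WT and 2 had BEAF, the bam GKD count being near the 64.0% over all genes, and all 3 further export receptor genes (Ranbp16, Ranbp21 and ebo) had Stwl in both genotypes. Among mRNA export genes, Stwl was at 6 of 7 genes of the THO complex and its adaptors in each genotype. It missed thoc5 in bam GKD and thoc6 in WT. In bam GKD it overlapped only Hel25E and thoc7. The nearest intervals lay 89 bp from Hpr1, 125 bp from Ref1, 313 bp from tho2 and 367 bp from thoc6. In WT it overlapped only Hel25E, thoc7 and Ref1, and lay 77 bp from tho2, 84 bp from Hpr1 and 100 bp from thoc5. Stwl was also at all 3 genes of the export complex docked at the pore (PCID2, xmas and e(y)2) in both genotypes, but overlapped only xmas. Of the 4 genes of the sbr family and its partner, Nxt1, which encodes that partner, nxf2 and Nxf3 had Stwl in both genotypes and nxf4 in neither. These groups are small, and 52.1% of all protein-coding genes had Stwl in both genotypes.

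Of these 33 genes Ran-like and thoc6 (6.06%) had Stwl in bam GKD only, against 11.9% of all genes, and cdm, RanBP3 and thoc5 (9.09%) had it in WT only, against 5.89%. Those calls rested on small or distant intervals. In bam GKD the interval began 372 bp from Ran-like and 367 bp from thoc6, and both calls depend on the flank of 500 bp. In WT the widest measured 248 bp at cdm, an importin gene, 178 bp at RanBP3 and 352 bp at thoc5, a gene of the THO complex. Ipo9, Arts, alphaKap4 and nxf4 were in none of the lists.

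The gene copies Ran-like and Ntf-2r, known in flies for their expression in testis, differed from each other. Ran-like (3L, 15484396 to 15485402) had no interval inside it and no Stwl in WT within 2652 bp. Ntf-2r (2L, 18454649 to 18455419) lay wholly inside wide Stwl intervals, 4073 bp in bam GKD and 4032 bp in WT, with a BEAF interval 57 bp away.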

How the data were processed

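CUT&RUN interval lists of 3 samples, placed in groups by their titles, were used; 21 further samples were not analysed here. The authors deposited each list as chromosome, start and end on dm6, without a score, strand or read count. MACS2 2.1.0, Bowtie2 2.2.8, deepTools 3.2.1, SAMtools 1.9, Trim Galore 0.6.6 and FastQC 0.11.8 were named, per the submitters' processing notes. Their settings, the control library and any pooling of the duplicates named in the design text are not stated in the labels. Differences in depth would change the number and width of intervals.

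Genes came from the RefSeq table of Release 6 plus ISO1 MT, the dm6 assembly, which gives no strand or transcripts. Ends are therefore called lower and higher by coordinate, and gene starts, promoters, exons and motifs were not examined. Starts were made 1-based, and an overlap of at least 1 bp counted. Overlap code in Python 3.11.15 with pandas 2.3.3 was tested on simulated data. Counts of genes were set beside the share over all protein-coding genes, with no test, since each group had 1 list. The members, lists and rules were chosen with earlier results of these data known. All 9 members were to be named, with other transport genes that had Stwl in 1 genotype only or no interval, the 2 paralogues and neighbours sharing an interval. Of the 33 other transport genes, 30 matched by symbol, 2 by synonym (Impbeta11 and Nxf3) and alphaKap4 by hand. Alternatives were flanks of 250 bp and 1000 bp, gene ends alone, gene bodies alone, the wider 50% of each list, equal numbers of intervals, an overlap of at least 100 bp, interval centres, and BEAF intervals with gaps of 1000 bp or less joined.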

Additional observations from a re-analysis of the deposited data

How the results depend on the processing

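Of 83 counts recomputed under 9 alternatives, 74 stayed within 1.5 times of the value given. Some of these were fixed by the setting, such as the BEAF counts with equal numbers of intervals. Taking 5083 of the widest intervals from each list left Stwl at 5 of the 9 genes in bam GKD and in both genotypes, and at 2 in WT only. It left 12 of the 33 other transport genes with Stwl in bam GKD. The shares of all protein-coding genes were 35.3% in bam GKD and 43.8% in WT, so 12 of 33 was near the background. This setting drops bam GKD intervals under 1184 bp and WT intervals under 521 bp, so it treats the lists unequally. The wider 50% of each list left 1 of the 9 in bam GKD only. It left 15 and 16 of the 33 other transport genes with Stwl in bam GKD and in WT, against 41.2% and 38.5% of all genes. Requiring interval centres in the searched span put 1 gene, Cse1, in bam GKD only. Gene bodies alone left 16 of the 33 other transport genes with Stwl in bam GKD, near the 48.3% of all genes. The 6 BEAF calls were kept under every alternative run, but not all of these could have removed one. Equal numbers left the BEAF list whole, and the flank of 1000 bp and the joining of BEAF intervals could only keep or add calls. Gene starts could not be searched without strand. No paired analysis was possible because each group has 1 list. Read depth and replicate spread are unknown.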

Other observations

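The ends of the 9 genes without Stwl had close or overlapping neighbours, a pattern chosen after its values were seen. Of the 5 ends with a gap of at most 150 bp to the next protein-coding gene, 1 had Stwl in each genotype, the end of emb facing Naglu. The ends without it were those of Ran facing CG15201, RanGAP facing Top2, which encodes a topoisomerase, Rcc1 facing CG33523 and Tnpo facing CG8219, with gaps of 42 bp, 47 bp, 141 bp and 87 bp. All 7 ends with a gap over 150 and up to 1000 bp had Stwl in both genotypes, and 4 of them had BEAF. Of the 4 ends inside another gene 2 had Stwl, and both ends with a gap over 1000 bp had it.

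Over all ends of protein-coding genes the shares with Stwl were 41.5% in bam GKD and 43.0% in WT for gaps of at most 150 bp. These are near the 44.9% and 39.2% of ends of any class, and below the shares of the next class. The 1 of 5 at the 9 genes is a small count, and its difference from these shares was not tested. The shares were 61.5% and 58.8% for gaps over 150 and up to 1000 bp. For gaps over 1000 bp they were 38.0% and 24.1%, and for ends inside another gene 32.4% and 26.6%. BEAF lay at 19.6%, 28.7%, 6.14% and 10.8% of ends in the same order of classes. With no strand in the table, starts and ends of transcripts facing each other could not be told apart.

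Among the 24 other transport genes with Stwl in both genotypes, 3 had more bases covered in bam GKD and 20 more in WT, with a median ratio of bam GKD to WT of 0.737, against 0.969 for the 9 genes and 1.00 over all genes. The median cover of these 24 genes was 785.5 bp in bam GKD and 1153 bp in WT. Those with more in WT include Kap-alpha1, with 447 bp in bam GKD and 978 bp in WT, msk, an importin gene, with 173 bp and 1380 bp, and Ref1, an adaptor of mRNA export, with 559 bp and 1524 bp. The 3 with more in bam GKD were Pen, with 1128 bp in bam GKD and 860 bp in WT, Tnpo-SR, with 794 bp and 219 bp, and PCID2, with 886 bp and 350 bp. Read depth is unknown, and the difference was not tested.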
